A study of Mus musculus with 8 samples.

Results

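Transforming growth factor beta (TGF-β) signalling was followed in fibrotic mouse liver through 9 genes. These were the ligands Tgfb1, Tgfb2 and Tgfb3, the receptors Tgfbr1, Tgfbr2 and Tgfbr3, and Smad7, Thbs1 and Ctgf (now Ccn2), 3 genes that act next to the ligands or answer to them. They were chosen by gene name among the probes of the arrays, and a probe was kept if 4 or more of the 8 arrays marked it as well above background. Of 14 probes with these names, 12 passed, and all 9 genes were measured, out of 18534 features (1 probe per gene, the brightest) in the whole data set. Because a probe could pass through the arrays where it was bright, no count over the probes that passed is given as support.

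Each of the 8 arrays held liver RNA of male mice whose fibrosis had been induced over 5 weeks with TAA, an abbreviation commonly used for thioacetamide, or with carbon tetrachloride (CCl4). Both are liver toxins, so every group had a damaged liver, and no untreated liver is analysed here. The mice were then followed for 1 or 2 weeks with an injection every 3 days of miR-29a or of a negative control oligonucleotide (NC). In TAA mice the 4 groups were miR-29a and NC at 2 weeks and miR-29a and NC at 1 week, and the CCl4 mice had the same 4, with 1 array a group. The labels give neither strain nor age, and they do not say whether a sample is 1 animal or a pool. A group therefore had no replicate of its own, and the p-values below measure only the spread between arrays after the fitted terms.

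TGF-β ligands are secreted in a latent complex and must be freed before they act. The free ligand binds the type II receptor, which activates the type I receptor, which in turn phosphorylates Smad2 and Smad3, and these enter the nucleus with Smad4. In the liver the pathway is best known for turning stellate cells into matrix-producing myofibroblasts, and miR-29 family members are known to repress collagen transcripts and to decline as fibrosis develops.

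Mature miR-29a is shown first, because its seed (bases 2 to 8, in capitals) is the stretch by which a miRNA pairs with its targets. The labels say miR-29a without the arm or the sequence injected. The one printed is the 3p arm in RefSeq, on chromosome 6 of GRCm38.p6 at chr6:31062673-31062694, minus strand.
mmu-miR-29a-3p: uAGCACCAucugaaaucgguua

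The probes of Tgfb1 and Tgfb2 are shown because these ligands are close relatives and both probes read the coding sequence near its end. Laid over each other without gaps, they shared 28 of 41 aligned bases (68.3%), and capitals mark the shared bases. On mm9 the Tgfb1 probe lies at chr7:26489877-26489936 on the plus strand, and the Tgfb2 probe at chr1:188449333-188449392 on the minus strand.
Tgfb1: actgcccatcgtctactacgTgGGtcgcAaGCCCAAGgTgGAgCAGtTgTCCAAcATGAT
Tgfb2: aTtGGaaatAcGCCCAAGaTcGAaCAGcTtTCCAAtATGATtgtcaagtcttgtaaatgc

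Tgfbr2 had a pair of probes that gave different answers, as described with the receptors. The dimmer one is shown because it lies at the end of the coding sequence, at chr9:115999496-115999555 on the minus strand (mm9), while the brighter one lies further along the transcript at chr9:115997155-115997214.
Tgfbr2 (dimmer probe): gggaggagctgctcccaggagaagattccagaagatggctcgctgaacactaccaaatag

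The values of the remaining members come from probes at chr12:87397804-87397863 (Tgfb3), chr4:47427736-47427795 (Tgfbr1), chr5:107535818-107535877 (Tgfbr3), chr2:117952585-117952644 (Thbs1) and chr10:24318281-24318340 (Ctgf) on mm9, and from 1 probe of Smad7.

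All levels are log2 values relative to the array's own 75th percentile of signal, so 0 is the 75th percentile and a difference of 1 is a 2-fold difference. Levels of different probes were not set against each other. Between 43.9% and 48.4% of an array's spots exceeded background clearly, and the percentile itself was 136 to 219 intensity units. The hepatocyte markers Alb and Ttr were high on all 8 arrays, at 10.83 to 11.21 and 9.15 to 9.94. All arrays shared 1 slide, with the TAA arrays in 1 row and the CCl4 arrays in the other, so agent and row cannot be told apart. The TAA 1-week NC array stood apart. Its mean correlation with the other arrays over all features was the lowest (0.965, against 0.970 to 0.983). Its summed level of the 10 Kupffer cell and macrophage markers was 360, against 50.3 to 90.0 on the other 7 arrays, and that of the 4 measured neutrophil markers was 438, against 86.2 to 160. The neutrophil gene S100a8 was at 6.02 there, against −1.39 to 0.29 elsewhere. The CCl4 1-week NC array was the highest in mesothelial markers. The summed level of the 5 measured markers was 14.9 there, against 1.38 to 4.71 on the others. The defining mesothelial markers Msln and Upk3b were at 3.28 and −0.15 there, against −0.34 to 1.66 and −4.82 to −1.75 elsewhere. The summed level of the 10 stellate cell and myofibroblast markers was also highest on that array, at 144, against 103 to 140 on the others. The sums are of linear levels relative to the 75th percentile, while the levels of single markers are log2. In whole liver a change in the number of cells of a type and a change in RNA per cell cannot be told apart.

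**Figure D1:**
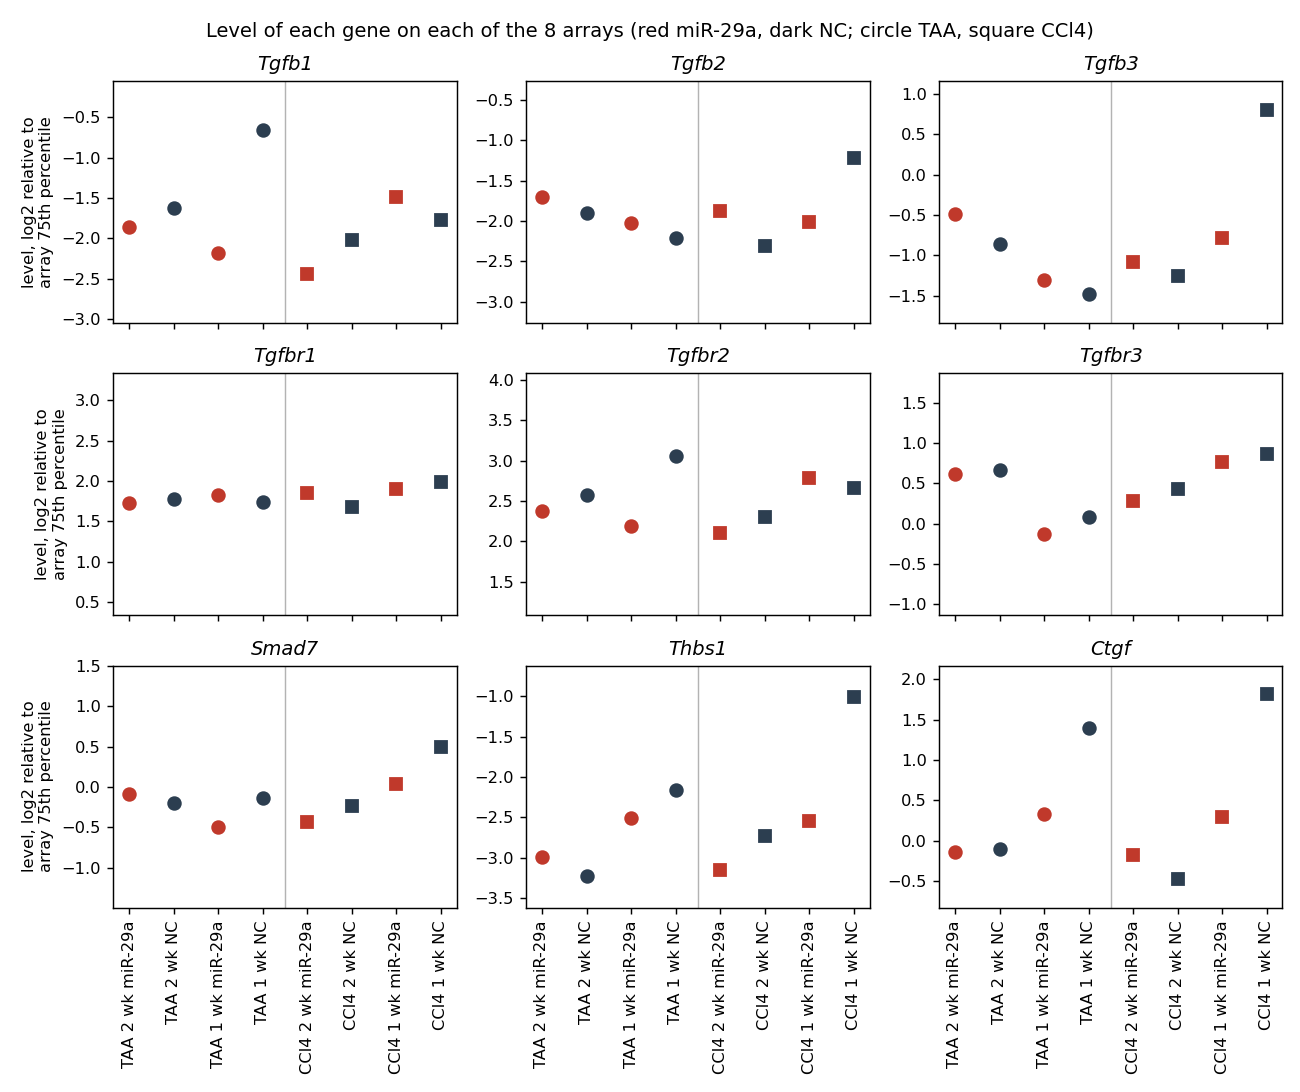
Level of each of the 9 genes on each of the 8 arrays, as log2 relative to the array's 75th percentile, with every panel spanning the same range. The TAA 1-week NC array is the highest for Tgfb1 and Tgfbr2, and the CCl4 1-week NC array is the highest for Tgfb2, Tgfb3, Tgfbr1, Tgfbr3, Smad7, Thbs1 and Ctgf.

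The ligands were low and each peaked on 1 array. Tgfb1, the ligand most studied in liver fibrosis, was at −0.65 in the TAA liver at 1 week with NC and between −2.45 and −1.48 on the other 7 arrays. In the TAA livers it was at −1.86 (2 weeks, miR-29a), −1.62 (2 weeks, NC) and −2.18 (1 week, miR-29a). In the CCl4 livers it was at −2.45 (2 weeks, miR-29a), −2.02 (2 weeks, NC), −1.48 (1 week, miR-29a) and −1.78 (1 week, NC). The high Tgfb1 value was thus on the array with the highest macrophage, neutrophil and platelet marker sums (platelet markers 3.95, against 1.31 to 3.51 elsewhere). Their part in it was not tested. The probe was printed 10 times on each array, and the SD over these spots was 0.12 to 0.24, which covers the error within an array and not the spread between livers.

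Tgfb3, a ligand that signals through the same receptors, peaked on another array. It was at 0.80 in the CCl4 liver at 1 week with NC and between −1.48 and −0.49 on the other 7. In TAA livers it was at −0.49 and −0.86 at 2 weeks and at −1.31 and −1.48 at 1 week (miR-29a and NC in turn). In CCl4 livers it was at −1.08 and −1.26 at 2 weeks, and at −0.79 with miR-29a at 1 week. Tgfb2 peaked on the same array, at −1.22, against −2.31 to −1.71 on the other 7. Its second, dimmer probe peaked there too, at −1.99, against −3.58 to −2.61. The CCl4 1-week NC array also carried the highest mesothelial and the highest stellate cell and myofibroblast marker sums. Their part in the ligand values was not tested.

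Of the receptors, Tgfbr1, the type I receptor kinase, varied least of the 9 genes. On its brightest probe it lay between 1.68 and 1.99 on all 8 arrays, a range of 0.30. A second, dimmer probe lay between −3.678 and −2.605 and was well above background on 4 of 8 arrays. For TAA against CCl4 at 2 weeks the dimmer probe stood at 0.91 ± 0.22, and the brighter one at −0.02 ± 0.14. Neither was called there (adjusted p = 0.47 and 0.97 by limma over all probes). Tgfbr2, the type II receptor that binds the ligand, lay between 2.10 (CCl4 2 weeks miR-29a) and 3.06 (TAA 1 week NC). Its high value was on the array where Tgfb1 peaked. Tgfbr3 (betaglycan), a co-receptor that presents ligand, above all TGF-β2, to the type II receptor, had a different pattern. It was at 0.61 and 0.66 in TAA livers at 2 weeks, and at −0.13 and 0.08 in TAA livers at 1 week (miR-29a and NC in turn). In CCl4 livers it was at 0.28 and 0.43 at 2 weeks, and at 0.77 and 0.86 at 1 week. The TAA livers at 1 week were the lowest and the CCl4 livers at 1 week the highest. No pair of arrays of one agent and week overlapped another pair. How many features kept every pair apart in this way was not counted. Taken 1 pairing at a time, 53.6% to 68.2% of all features did not overlap between pairs that shared the agent or the week.

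Smad7, the inhibitory Smad that TGF-β induces and that blocks the type I receptor, was at 0.50 in the CCl4 liver at 1 week with NC. It was at 0.04 in its miR-29a counterpart and at or below −0.08 on the other 6 arrays, the lowest being −0.49 (TAA 1 week miR-29a). Thbs1 (thrombospondin 1), a matrix protein that can free latent TGF-β, was at −1.01 in the CCl4 liver at 1 week with NC. It was at −2.17 in the TAA liver at 1 week with NC, and between −3.23 and −2.51 on the other 6 arrays. Its lowest value, in the TAA liver at 2 weeks with NC, was not well above background.

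Ctgf, a matricellular protein and a well-known TGF-β target, was high on both 1-week NC arrays. It was at 1.40 in the TAA liver and 1.82 in the CCl4 liver at 1 week with NC. Both 1-week miR-29a livers were lower, at 0.33 (TAA) and 0.30 (CCl4). At 2 weeks Ctgf was at −0.14 and −0.10 in TAA livers and at −0.18 and −0.48 in CCl4 livers (miR-29a and NC in turn), so all 4 arrays at 2 weeks were below all 4 at 1 week.

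The first comparison asked whether the injected miR-29a moved these genes relative to NC. In the 1-week pairs some members were more than 2-fold lower with miR-29a, and in the 2-week pairs none was. In the CCl4 pair at 1 week, Tgfb3 was 3.01-fold lower with miR-29a, Thbs1 2.91-fold lower and Ctgf 2.87-fold lower. That made 3 of 9 members over 2-fold lower, against 1.79% of all features in that pair. In the TAA pair at 1 week, Tgfb1 was 2.88-fold lower and Ctgf 2.10-fold lower, 2 of 9 members, against 5.87% of all features. All 5 measured mesothelial markers were lower with miR-29a in the CCl4 pair at 1 week (median −2.74), and all 10 Kupffer cell and macrophage markers in the TAA pair at 1 week (median −2.33). In that TAA pair 3 of 4 neutrophil (−6.77), all 4 platelet (−1.61), 8 of 9 endothelial (−0.45) and 4 of 5 mesothelial markers (−0.44) were lower too. There 6 of 7 hepatocyte markers were higher (0.18), and the stellate cell and myofibroblast markers were split 5 to 5. Their part in the members' values was not tested. At 2 weeks, where no member was over 2-fold lower, 1.13% of features were in the TAA pair and 0.89% in the CCl4 pair. No member was over 2-fold higher in any of the 4 pairs. Of all features 1.55% were in the TAA pair at 2 weeks, 3.96% in the TAA pair at 1 week, 0.966% in the CCl4 pair at 2 weeks and 1.04% in the CCl4 pair at 1 week.

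At 2 weeks the members lay between −0.24 and 0.38 in the TAA pair and between −0.43 and 0.43 in the CCl4 pair. Ctgf differed by −0.04 in TAA livers and 0.30 in CCl4 livers, and Thbs1 by 0.24 and −0.42, the first of these against an NC array where it was not well above background. Tgfb1 was below 0 in 3 of 4 pairs, and so were Tgfbr2, Smad7, Thbs1 and Ctgf. Tgfbr3 was lower with miR-29a in 4 of 4 pairs, but by only −0.21 to −0.05.

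**Figure D2:**
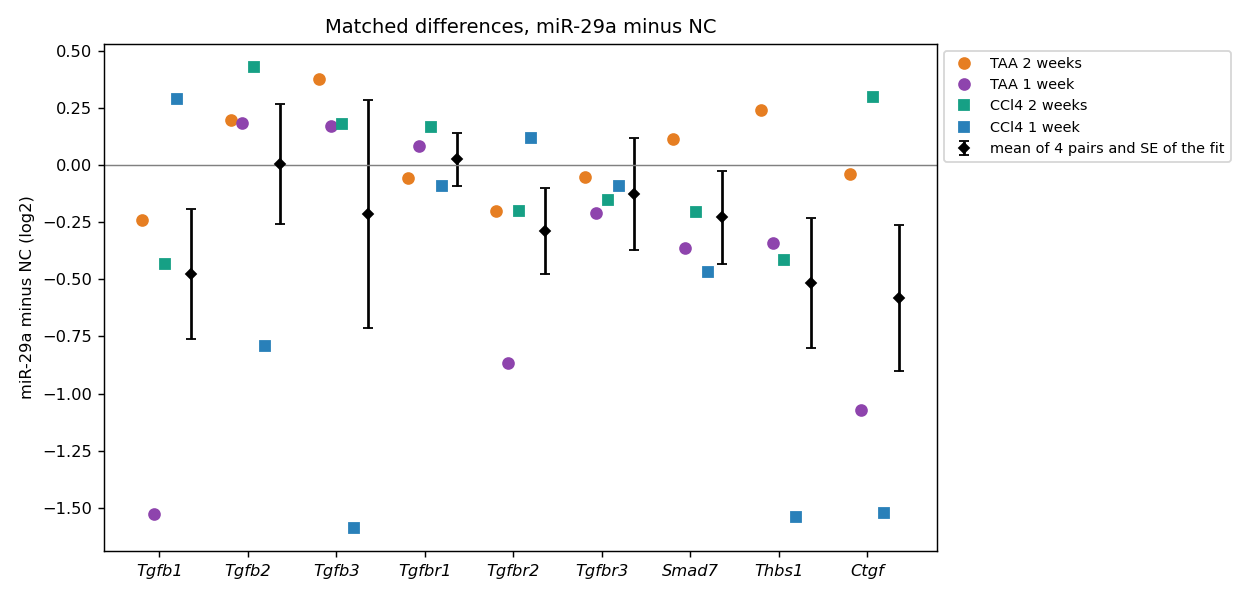
Difference in log2 level between the miR-29a and the NC array of the same agent and week, for the 4 pairs, with the mean of the pairs and the SE of the fit. The points over 2-fold below 0 are Tgfb3, Thbs1 and Ctgf in CCl4 livers at 1 week, and Tgfb1 and Ctgf in TAA livers at 1 week.

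Over all 8 arrays no member passed the test. In a limma fit with agent, week and oligonucleotide, adjusted over all 18534 features by Benjamini-Hochberg, 0 features were called (0%), 525 had an unadjusted p under 0.05, and the smallest adjusted p was 1.00. The fitted differences of miR-29a against NC were −0.58 ± 0.32 for Ctgf, −0.51 ± 0.29 for Thbs1 and −0.48 ± 0.29 for Tgfb1 (SE, 4 arrays each). They were −0.29 ± 0.19 for Tgfbr2, −0.23 ± 0.20 for Smad7, −0.21 ± 0.50 for Tgfb3 and −0.13 ± 0.25 for Tgfbr3. Tgfb2 and Tgfbr1 stood at 0.01 ± 0.26 and 0.03 ± 0.12. Of the 9 members 2 lay above 0 and 7 below, with a median of −0.23, against a median of 0.03 over all features. Tgfb2, counted above 0, was at −0.17 by its dimmer probe. Without the CCl4 1-week NC array Ctgf was at −0.30, Thbs1 at −0.21, Smad7 at −0.07 and Tgfb3 at 0.37. Without the TAA 1-week miR-29a array Tgfb1 was at −0.18, Tgfbr2 at −0.10 and Smad7 at −0.10, and without the TAA 1-week NC array Tgfb1 was at −0.25 and Tgfbr2 at −0.19. In the same fit all 10 Kupffer cell and macrophage markers lay below 0 (median −0.72), as did 3 of 4 neutrophil markers (median −1.81) and 4 of 5 mesothelial markers (median −0.37). So did all 4 platelet (−0.53), 8 of 9 endothelial (−0.29) and 6 of 10 stellate cell and myofibroblast markers (−0.07). Above 0 were 4 of 7 hepatocyte (0.11) and 3 of 5 cholangiocyte markers (0.01). None of these markers was called. Their part in the members' values was not tested.

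Whether the difference with miR-29a changed with the week or the agent was fitted as an interaction. For Ctgf the difference was more positive at 2 weeks than at 1 week by 1.43 ± 0.34, with an unadjusted p of 0.0071 and an adjusted p of 1.00 by limma. Of all features 356 had an unadjusted p under 0.05 in this fit, and 0 were called. For Thbs1 the change with week was 0.85 ± 0.51. By agent, the miR-29a difference was more negative in TAA than in CCl4 livers for Tgfb1 (−0.81 ± 0.52) and more positive for Thbs1 (0.93 ± 0.48), and neither passed (adjusted p = 1.00 by limma; 0 features called, 258 with an unadjusted p under 0.05). With each array left out in turn, the change with agent ranged from −1.33 to −0.29 for Tgfb1 and from 0.42 to 1.43 for Thbs1, and the change with week from 0.32 to 1.38 for Thbs1.

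The second comparison set TAA against CCl4 livers. Over both weeks together 0 features were called by limma, 5323 had an unadjusted p under 0.05, and the smallest adjusted p was 0.063. No member passed, against 0% of features, 3 lay above 0 and 6 below. Tgfbr1, counted below 0 by its brighter probe (−0.09), was above 0 by its dimmer one (0.31). Each week was then taken alone, in a fit with the 4 combinations of agent and week and the oligonucleotide as terms.

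At 1 week Tgfbr3 was lower in TAA livers. The difference was −0.84 ± 0.12 (SE, 2 arrays each; limma adjusted p = 0.0075), with −0.90 in the miR-29a pair and −0.78 in the NC pair. It was the 1 member called, against 35.7% of all features called at 1 week (2343 higher and 4277 lower, the lower ones 23.1%), so the members' share was below that background. Without the CCl4 1-week miR-29a array it was −0.82 with an adjusted p of 0.063. Tgfb3 stood at −1.40 ± 0.50 (adjusted p = 0.080) and Smad7 at −0.58 ± 0.18 (adjusted p = 0.055), and neither passed. Tgfb3 was −2.28 in the NC pair and −0.52 in the miR-29a pair, and −0.48 in the fit without the CCl4 1-week NC array. Without the CCl4 1-week miR-29a array it was −2.32 and passed (adjusted p = 0.0216 by limma). Tgfb2 stood at −0.50 ± 0.31, at 0.04 without the CCl4 1-week NC array and at −1.03 without the miR-29a one, where it passed (adjusted p = 0.0496 by limma). Smad7 passed with normexp background correction (−0.43, adjusted p = 0.0387 by limma) and with probes well above background on all 8 arrays (adjusted p = 0.0427). It also passed with scaling to the array median (−1.17, adjusted p = 0.00243), and so did Tgfb3 (−1.99, adjusted p = 0.0082). That scaling moved the median of all features in this comparison to −0.75, against −0.16. Both arrays of TAA livers lay below both arrays of CCl4 livers for 5 of 9 members (Tgfb2, Tgfb3, Tgfbr1, Tgfbr3 and Smad7), while 68.2% of all features did not overlap in one direction or the other. All 5 measured mesothelial markers were below 0 in this comparison, with a median of −2.27 and 2 of them called lower. Of the 10 stellate cell and myofibroblast markers, 1 was called higher and 1 lower, with a median of −0.65. Of 9 endothelial markers 3 were called lower (median −0.31), of 5 T cell markers 2 were called higher (median 0.50), and all 4 neutrophil markers were above 0 with 1 called higher (median 2.36). Of 10 Kupffer cell and macrophage markers 9 were above 0 (median 0.79) and none was called. Their part in the members' values was not tested.

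The Tgfbr2 probes disagreed in this comparison. The brighter one stood at −0.09 ± 0.25 (adjusted p = 0.79). The dimmer one, at the end of the coding sequence shown above, was higher in TAA livers by 1.08 ± 0.20 (adjusted p = 0.013 by limma over all probes). It was at −0.65 and −0.30 in TAA livers at 1 week and at −1.42 and −1.69 in CCl4 livers at 1 week (miR-29a and NC in turn). Both probes were well above background on all 8 arrays.

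At 2 weeks 7 of 9 members lay above 0 and none passed. Tgfb2, counted above 0 by its brighter probe (0.29), was below 0 by its dimmer one (−0.29). Tgfbr1, counted below 0 by its brighter probe (−0.02), was above 0 by its dimmer one (0.91). Tgfb3 stood at 0.50 ± 0.50, Tgfb1 at 0.49 ± 0.42, Tgfbr3 at 0.28 ± 0.12 and Smad7 at 0.19 ± 0.18. With each array left out in turn, Tgfb3 ranged from 0.10 (without the TAA miR-29a array at 2 weeks) to 0.89 (without its NC counterpart), and Smad7 from −0.04 to 0.42 over the same arrays. Tgfb1 ranged from 0.33 to 0.65. Of the Kupffer cell and macrophage markers 9 of 10 were above 0 (median 0.47), and of the mesothelial ones 4 of 5 (median 0.47). So were 9 of 10 stellate cell and myofibroblast (median 0.29) and 4 of 5 cholangiocyte markers (0.36). Below 0 were 6 of 7 hepatocyte (−0.14) and 3 of 4 platelet markers (−0.58). Their part was not tested. Over all features 0 were called by limma at 2 weeks, with 2093 at an unadjusted p under 0.05. For 6 of 9 members (Tgfb1, Tgfb3, Tgfbr2, Tgfbr3, Smad7 and Ctgf) both TAA arrays lay above both CCl4 arrays, while 55.8% of all features did not overlap in one direction or the other.

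The agent difference in Tgfbr3 changed between the weeks. It was more positive at 2 weeks than at 1 week by 1.12 ± 0.17 (limma adjusted p = 0.031), the 1 member called, against 9.84% of all features (1028 higher, 5.55%, and 796 lower). The adjusted p was 0.10 without the filter on dim probes. It was 0.084 to 0.16 when any 1 of 6 arrays was left out, namely either CCl4 array at 1 week, either CCl4 array at 2 weeks or either TAA array at 2 weeks, with values of 1.07 to 1.17. The same change was 1.90 ± 0.71 for Tgfb3 (adjusted p = 0.15) and 0.78 ± 0.25 for Smad7 (adjusted p = 0.11), and neither passed. The Tgfb3 value was 0.98 without the CCl4 1-week NC array and 2.81 without the miR-29a one. With scaling to the array median both passed, at 2.30 for Tgfb3 and 1.18 for Smad7 (adjusted p = 0.0482 and 0.0279 by limma). That scaling also moved the median of all features in this fit to 0.46, against 0.06, so their passing is relative to that shift. All 5 mesothelial markers were above 0 in this fit (median 2.28), and all 4 neutrophil markers were below 0 with 1 called (median −2.28). Above 0 were also 9 of 10 stellate cell and myofibroblast (median 0.65), 4 of 5 cholangiocyte (0.97) and 7 of 9 endothelial markers (0.49, 1 called higher). Below 0 were 7 of 10 Kupffer cell and macrophage (−0.42) and 3 of 4 platelet markers (−1.21). Their part was not tested. By their brightest probes all 9 members were above 0 in this fit, with a median of 0.40, against 0.06 over all features. The dimmer Tgfbr2 probe was below 0, at −0.70 ± 0.28, while the brighter one stood at 0.37.

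**Figure D3:**
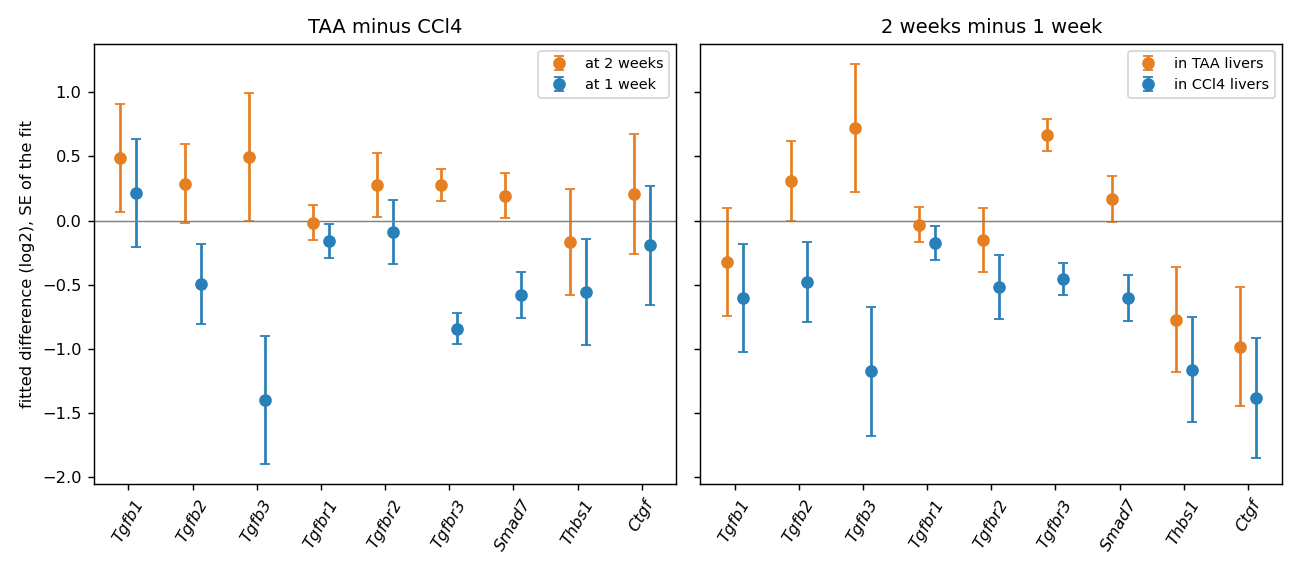
Fitted log2 differences with the SE of the fit for the 9 genes, TAA minus CCl4 at 2 weeks and at 1 week (left) and 2 weeks minus 1 week in TAA and in CCl4 livers (right). Tgfbr3 at 1 week, at −0.84, is the 1 called value of those drawn.

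The third comparison set 2 weeks against 1 week. Ctgf and Thbs1 were the members with the largest differences, −1.18 ± 0.32 and −0.97 ± 0.29 (SE, 4 arrays each). Both were lower at 2 weeks in 4 of 4 pairs, and for both all 2-week arrays lay below all 1-week arrays, against 2.57% of all features without overlap. Neither passed the test (limma adjusted p = 0.87 for both), 0 features were called, and 961 had an unadjusted p under 0.05. All 10 Kupffer cell and macrophage markers (median −0.62), 3 of 4 neutrophil markers (median −1.35) and 4 of 5 mesothelial markers (median −0.25) were also below 0 in this fit. So were 3 of 4 platelet (−0.39), 7 of 9 endothelial (−0.14), 4 of 5 cholangiocyte (−0.15) and 4 of 5 T cell markers (−0.12). The stellate cell and myofibroblast markers went the other way, with 6 of 10 above 0 (median 0.09). None of these markers was called. Their part in the members' values was not tested.

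In CCl4 livers all 9 members stood lower at 2 weeks by their brightest probes, with a median of −0.60, against −0.03 over all features. Tgfbr2 was at −0.52 by its brighter probe and at 0.03 ± 0.20 by its dimmer one. Ctgf was at −1.38 ± 0.47 (adjusted p = 0.21), Tgfb3 at −1.18 ± 0.50 (0.30), Thbs1 at −1.16 ± 0.41 (0.22), Smad7 at −0.60 ± 0.18 (0.17) and Tgfbr3 at −0.46 ± 0.12 (0.14). No member passed the limma test, against 1.08% of all features called (184 higher, 16 lower). The largest single steps were in the NC pair, where Ctgf was 4.91-fold lower at 2 weeks, Tgfb3 4.17-fold, Thbs1 3.30-fold and Tgfb2 2.13-fold, 4 of 9 members over 2-fold lower, against 2.69% of all features. Their CCl4 1-week NC array was the one with the highest mesothelial and the highest stellate cell and myofibroblast sums. Without that array the fitted value was −0.26 for Tgfb3, −0.48 for Thbs1 and −0.76 for Ctgf. Without its miR-29a counterpart these were −2.09, −1.85 and −2.01. Without the CCl4 2-week NC array Ctgf was at −0.80. All 5 mesothelial markers (median −1.62) and all 10 Kupffer cell and macrophage markers (median −0.48) were below 0 in CCl4 livers. So were 5 of 5 cholangiocyte (median −0.65), 8 of 10 stellate cell and myofibroblast (−0.46) and 8 of 9 endothelial markers (−0.26). The neutrophil and platelet lists had medians of 0.03 and 0.05. None of these markers was called, and their part was not tested.

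In TAA livers 4 members lay above 0 and 5 below. Tgfb2, counted above 0 by its brighter probe (0.31), was below 0 by its dimmer one (−0.56). For Tgfbr1, counted below 0 by its brighter probe (−0.03), the dimmer one was above 0 (0.51). Tgfbr3 stood at 0.67 ± 0.12 with an adjusted p of 0.066, which did not pass. It passed with normexp background correction (0.54), with scaling to the array median (0.86) and with probes well above background on all 8 arrays (0.67). Tgfb3 stood at 0.72 ± 0.50, Ctgf at −0.98 ± 0.47 and Thbs1 at −0.77 ± 0.41, and none of them passed. Thbs1 was at −0.27 without the TAA 2-week NC array, on which it was not well above background, and at −1.27 without the miR-29a one. Ctgf was at −0.66 without the TAA 1-week NC array and at −0.62 without the 2-week one. In the NC pair Ctgf was 2.83-fold lower at 2 weeks and Thbs1 2.09-fold lower, the latter at a 2-week level not well above background. These were 2 of 9 members over 2-fold lower, against 6.7% of all features. All 4 neutrophil markers (median −2.71) and all 4 platelet markers (−0.88) were below 0 in TAA livers. So were 9 of 10 Kupffer cell and macrophage markers (−0.84). Above 0 were 4 of 5 mesothelial (0.80), 4 of 5 cholangiocyte (0.56), 7 of 10 stellate cell and myofibroblast (0.39) and 6 of 9 endothelial markers (0.11). None of these markers was called, and their part was not tested. Over all features 0 were called by limma, with 4998 at an unadjusted p under 0.05.

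The other genes of the pathway were counted over 7 lists with 84 measured genes: latency and activation, other receptors, Smads and cofactors, inhibitors, target genes, related ligands, and the other thrombospondins and CCN proteins. At 1 week 19 of 84 were called between TAA and CCl4 livers, 3 higher and 16 lower, which is 22.6%, against 35.7% of all features. Their median was −0.39, against −0.16 over all features. The calls sat in 6 of the 7 lists. Of the 19 genes, 15 lost the call without one or the other of the CCl4 1-week arrays, where 7 (without miR-29a) and 5 (without NC) pathway genes were called. Bmp6, Mmp2, Strap and Cdkn1a kept theirs under every alternative that gave them a value.

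Bmp6, a bone morphogenetic protein that governs hepcidin and iron balance in the liver, was lower in TAA livers at 1 week by −1.92 ± 0.19. Its levels were −3.34 and −3.42 in TAA livers and −1.53 and −1.40 in CCl4 livers (miR-29a and NC in turn). Mmp2, a gelatinase that can free latent TGF-β, was lower by −1.84 ± 0.20. Cdkn1a, the cell cycle inhibitor p21 and a target of TGF-β, was higher by 1.82 ± 0.24. Crebbp, a coactivator of Smads, was higher by 1.22 ± 0.26 on its brightest probe, while its other probe stood at −0.61. Limma's adjusted p for these 4 genes ran from 0.0046 to 0.020.

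The list counts in this paragraph stand beside 23.1% of all features called lower and 35.7% called in either direction at 1 week. Of 10 Smads and cofactors, Smad2 (−0.67), Smad4 (−0.59) and Smad5 (−0.55) were called lower in TAA livers at 1 week, and Crebbp higher. In the list of inhibitors 5 of 14 genes were called lower. Of these the ubiquitin ligases Smurf1 (−0.62) and Smurf2 (−0.53), Strap (−1.04) and Pmepa1 (−0.97) are known to restrain the signal. The other, Usp15 (−0.70), is a deubiquitinase known to promote it, although it stood in that list. A further probe of Smurf2 stood at 0.36. Of 9 other receptors and co-receptors, Acvr2a (−0.71) and Tgfbrap1 (−0.77) were called lower and Acvr2b (0.82) higher. Of 24 target genes, Id2 (−0.74), Snai2 (−0.53) and Zeb1 (−0.48) were called lower and Cdkn1a higher. Of 12 related ligands Gdf2 (−0.64) and Bmp6 were called lower, of 11 latency genes Mmp2, and of the 4 measured thrombospondins and CCN proteins 0. All of the calls in this paragraph other than those of Strap, Cdkn1a, Bmp6 and Mmp2 were lost in at least 1 fit without a CCl4 1-week array. Smad5, Smurf1 and Zeb1 lost theirs whichever of the 8 arrays was left out.

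Between the weeks the agent difference changed for 5 of 84 pathway genes (5.95%, against 9.84% of all features). It became more positive at 2 weeks for Mmp2 (3.11 ± 0.28), Fmod (2.45 ± 0.41), Bmp6 (2.40 ± 0.27) and Gdf2 (1.01 ± 0.17), and more negative for Acvr2b (−1.20 ± 0.24). Limma's adjusted p for these genes ran from 0.027 to 0.042. No pathway gene was called without the filter on dim probes, nor without any 1 of the same 6 arrays named for Tgfbr3. Acvr2b also missed the threshold with scaling to the array median (adjusted p = 0.112) and Bmp6 with normexp (adjusted p = 0.0837). Fmod (fibromodulin) is a matrix proteoglycan that binds TGF-β.

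In the other comparisons no pathway gene passed. At 2 weeks the largest differences of TAA against CCl4 were 1.66 ± 0.29 for Fmod and 1.34 ± 0.24 for Cdkn1a (adjusted p = 0.44 for both). Between 2 weeks and 1 week they were Mmp2 (1.84 ± 0.20) and Bmp6 (1.45 ± 0.19) in TAA livers, with an adjusted p of 0.063 each. In CCl4 livers they were Smad9 (−1.65 ± 0.79) and Acta2, the smooth muscle actin of myofibroblasts (−1.53 ± 0.35), with adjusted p of 0.34 and 0.11. For miR-29a against NC they were Timp1, an inhibitor of matrix proteases (−0.77 ± 0.55), and Cdkn1a (−0.76 ± 0.19), both with an adjusted p of 1.00 by limma. Timp1 was lower with miR-29a in both pairs at 1 week, at −2.28 against 0.03 with NC in TAA livers and at −2.54 against −0.59 in CCl4 livers. It was higher with miR-29a in both pairs at 2 weeks, at −1.96 against −2.45 in TAA livers and at −2.15 against −2.83 in CCl4 livers.

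The features whose levels followed each member most closely over the 8 arrays were ranked by Pearson's r, as a description. Arrays that stand apart weigh heavily in such an r, and the features were picked as the highest of 18534. For Tgfb1 they were Wfdc17 (0.99), Ucp3 (0.98) and Iglv1 (0.98). For Tgfbr2 they were an unnamed probe, Evi2a and Ctla2b (all 0.98). For Tgfb2 they were Fndc5 (0.98), Cyp2s1 (0.97) and Efemp1 (0.96), and for Tgfb3 Cdon (0.98), Timp2 (0.97) and Gpx8 (0.97). For Tgfbr3 they were Gpr107, Pon2 and Abhd16a (all 0.99), and 806 features had an r above 0.9 with it, against 5 to 142 for the other members. For Tgfbr1 they were Rab1b (0.98), Ubald1 (0.96) and Klf10 (0.95). For Smad7 they were Hspb2 (0.96), an unnamed transcript on chromosome 4 (0.96) and Ppic (0.95). For Thbs1 they were Mex3d (0.96), Zfp593 (0.94) and Col1a1 (0.94), and for Ctgf an unnamed probe (0.94), Dnajb1 (0.94) and Mgp (0.92).

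**Figure D4:**
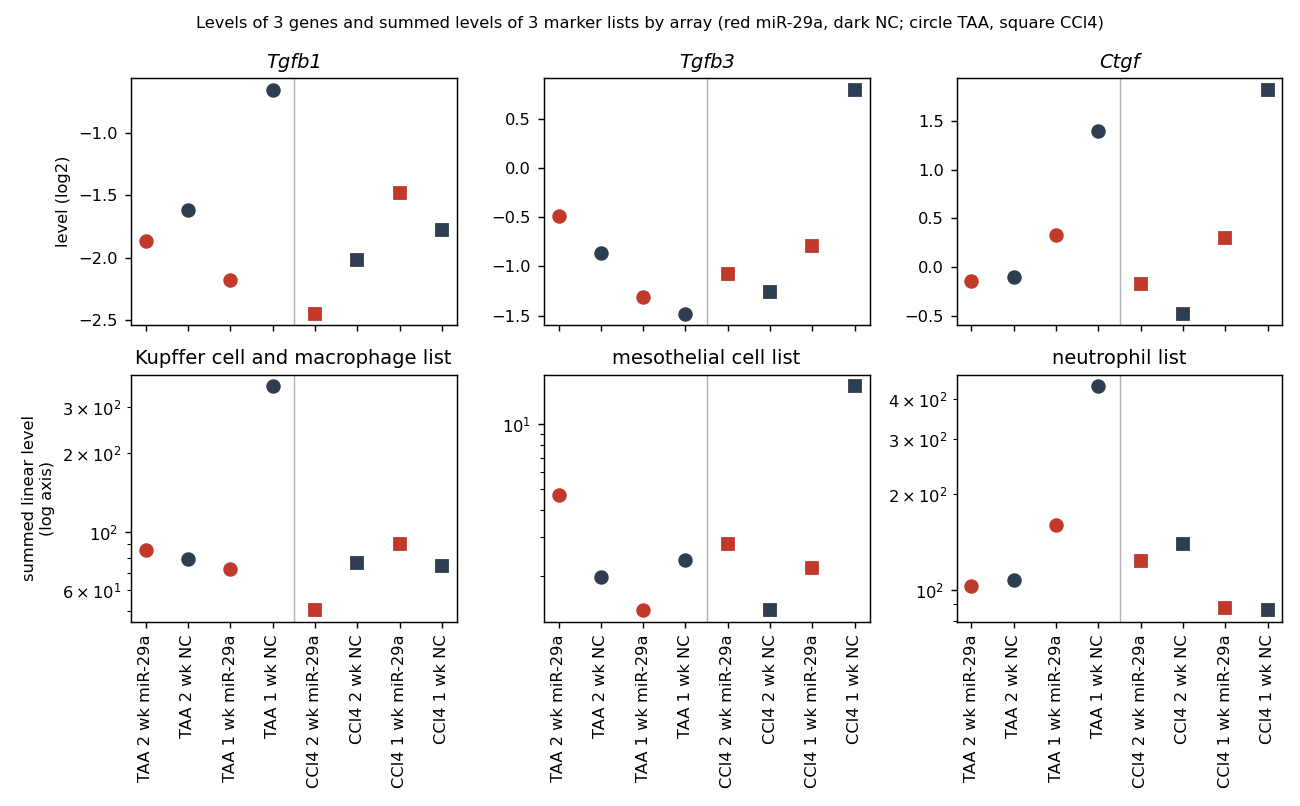
Log2 levels of Tgfb1, Tgfb3 and Ctgf on the 8 arrays (top) and the summed linear levels of the Kupffer cell and macrophage, mesothelial and neutrophil marker lists (bottom, log axes). The macrophage and neutrophil sums peak on the TAA 1-week NC array at 360 and 438, where Tgfb1 peaks, and the mesothelial sum peaks on the CCl4 1-week NC array at 14.9, where Tgfb3 peaks.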

How the data were processed

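The data were 8 one-colour (Cy3) Agilent arrays of mouse liver, 1 per combination of agent, week and oligonucleotide. The intensity values come, per the file headers, from the authors' run of Agilent Feature Extraction (version 10.10.1.1), with background subtracted, and its deposited well-above-background and outlier flags (0 or 1 per spot, unit other) were used. A second deposited table, of log2 values per probe and array, served as an alternative. Each of its columns was the log2 processed signal minus 1 constant (within 0.01 for 99.8% of 55657 probes), with its making not given in the sources used here and column medians of −4.06 to −3.45.

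Control and outlier spots were left out, spots of a probe averaged, and log2 intensity taken relative to the array's 75th percentile. Fits used limma 3.58.1 in R 4.3.3 with moderated statistics, with 4 residual degrees of freedom in the additive fit and 3 with the 4 agent and week combinations, and Benjamini-Hochberg adjustment over all features at 0.05. The code was tested on simulated data. A RefSeq table (GRCm38.p6) served for names alone, and probe coordinates are those of the files (mm9). Dim probes are less precise.

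The named pathway genes were the 4 with the largest difference among those called in each of 5 comparisons, or else the 2 largest as values. The further called genes were named after their values were seen. The members and lists were chosen with earlier results of these data known. Alternatives were normexp (offset 50), quantile and median scaling, the authors' matrix, the filters, the mean over probes, a block of matched combinations, and each array left out.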

Additional observations from a re-analysis of the deposited data

Results flagged for a closer look

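The level of Smad7 on the CCl4 1-week NC array, 0.50, lay far from the other 3 NC arrays, which spanned −0.23 to −0.13. The gap was 0.86 of the whole range of the 4 arrays, above Dixon's critical value for 4 values. Over 54 sets of 4 arrays (6 arms, 9 genes) this was the 1 set past that value, and chance flags about 1 set in 20. The mesothelial marker sum was 14.9 on the same array, and its part in the value was not tested.

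The Tgfbr3 difference between TAA and CCl4 livers differed between the weeks by 1.12 (limma adjusted p = 0.031 for the test of the difference itself). TAA arrays stood below CCl4 arrays at 1 week in both pairs and above them at 2 weeks in both pairs.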

How the results depend on the processing

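The labels give no replicate numbers that pair arrays. A replicate block of matched combinations was fitted for the 3 comparisons over all 8 arrays alone, where it called 0 features, as without it. Where an array left out leaves 1 in its arm, that one is assumed to vary like the others. The slide and scan block was not run, since all arrays shared 1 slide and 1 scan. Thbs1 has no value with the filter on all 8 arrays, nor have Bmp6, Mmp2, Cdkn1a and Fmod. Array-median scaling moved the median of all features for TAA against CCl4 at 1 week to −0.75, against −0.16. It moved that of the agent by week difference to 0.46, against 0.06. For 2 weeks against 1 week in TAA livers it moved the median to 0.23, against 0.04. Leaving out the filter on dim probes moved the median for TAA against CCl4 at 1 week to 0.35. Changes under these settings are relative to those shifts. Causes of the moves below were not tested.

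With array-median scaling, TAA against CCl4 called 21 pathway genes and 5439 features (235 higher, 5204 lower) over both weeks, against 0. At 1 week it called 6 members, 59 pathway genes and 11796 features (1119 higher, 10677 lower), against 1, 19 and 6620 (2343 higher, 4277 lower). For 2 weeks against 1 week it called 308 features and 1 pathway gene in CCl4 livers, against 200 and 0, and 1 member, 3 pathway genes and 762 features in TAA livers, against 0. For the agent by week difference it called 3 members, 14 pathway genes and 3451 features (2909 higher, 542 lower), against 1, 5 and 1824 (1028 higher, 796 lower). With normexp, TAA against CCl4 called 6 features over both weeks and 2 members at 1 week. For 2 weeks against 1 week it called 1 pathway gene in CCl4 livers, and 1 member, 6 pathway genes and 2555 features in TAA livers. For the agent by week difference it called 9 pathway genes and 3430 features. Quantile normalization called 11 features for TAA against CCl4 and 0 for 2 weeks against 1 week in CCl4 livers. With the filter on all 8 arrays, TAA against CCl4 called 6 features over both weeks and 2 members at 1 week, and 2 weeks against 1 week in TAA livers called 1 member, 2 pathway genes and 830 features. Without a filter, TAA against CCl4 called 6 pathway genes and 3885 features at 1 week and 11 features at 2 weeks. Without it, 2 weeks against 1 week called 1 feature in CCl4 livers and 6 in TAA livers, and the agent by week difference 0 members, 0 pathway genes and 0 features.

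Leaving out each array in turn, TAA against CCl4 at 1 week called 1 to 2 members, 5 to 23 pathway genes and 1765 to 7450 features. For 2 weeks against 1 week it called 0 to 1 pathway genes and 0 to 505 features in CCl4 livers, and 0 to 4 pathway genes and 0 to 850 features in TAA livers. For the agent by week difference it called 0 to 1 members, 0 to 7 pathway genes and 0 to 2381 features. The lowest count at 1 week came without the CCl4 1-week miR-29a array (features) or its NC counterpart (pathway genes).

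For miR-29a against NC, some small values changed sign. Tgfb2 was −0.0387 with array-median scaling and −0.0846 as the mean over probes, and Tgfbr1 −0.0147 with normexp and −0.0186 with array-median scaling. With each array left out, Tgfb2 ranged from −0.199 to 0.303, Tgfb3 from −0.599 to 0.366, Tgfbr1 from −0.0275 to 0.0728 and Tgfbr3 from −0.285 to 0.0359. In TAA against CCl4 at 1 week Tgfb2 ranged from −1.03 to 0.0359 and Tgfbr2 from −0.478 to 0.295, and Tgfbr2 was 0.18 with quantile normalization and 0.494 as the mean over its probes. In TAA against CCl4 at 2 weeks Smad7 ranged from −0.0354 to 0.425. With normexp some differences of dim genes were smaller. For miR-29a against NC, Tgfb1 was at −0.166 and Thbs1 at −0.19, and Thbs1 was at −0.46 for 2 weeks against 1 week. Over all member and pathway gene differences and alternatives tabulated, 808 values kept direction and call, 156 kept direction but no longer passed, 17 came to pass and 20 changed sign. Each group had 1 array, and Thbs1 and the ligands were dim.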
